A study of Mus musculus with 10 samples.

Results

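The genes described here are 50 that encode histone and DNA modifying enzymes and chromatin remodellers. They were read from RNA-sequencing of EM γδ T cells of naïve mice and mice pre-exposed to *P. chabaudi*, a rodent malaria parasite. They were chosen by name as enzymes that could hold a lasting transcriptional state, by a rule that uses no measured value, although earlier results of these data were known. Each was matched by its Entrez identifier to 1 row of the 27179 genes counted. All 50 also passed the filter on low counts and were among the 12655 genes tested. They comprise 7 genes listed by family as H3K4 methyltransferases, 3 H3K36 and H3K79 methyltransferases, 4 genes of Polycomb repressive complex 2 (PRC2), 5 H3K9 methyltransferases, 9 histone demethylases, 6 histone deacetylases, 5 histone acetyltransferases, 5 enzymes that place or remove DNA methylation and 6 chromatin remodellers. All mice were female C57BL/6, a wild-type inbred strain, and were 6 to 8 weeks old at infection. The pre-exposed group (5 mice) had received 50000 infected red blood cells intravenously, and the naïve group (5 mice) had received none. Both groups were given chloroquine and pyrimethamine (10 mg/kg each) at day 14, followed by 5 days of both drugs in the drinking water, so the naïve mice received the drugs without the infection. Spleens were taken 12 weeks after the treatment ended, and γδ T cells with the surface phenotype of effector memory (EM) cells, CD3+ γδTCR+ CD62L- CD44+, were sorted from them, with 1 library per mouse. The comparison asks whether these enzymes differed in these cells long after the infection was cleared.

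Chromatin enzymes write, erase and read chemical marks on histones and DNA. In general, methylation of lysine 4 and acetylation of histones go with active genes, methylation of lysine 36 with transcribed gene bodies, and methylation of lysines 9 and 27 and of DNA with silent ones, while remodellers use ATP to move nucleosomes. In conventional T cells such marks are laid down during the effector response and part of them persists in memory cells, which makes these enzymes candidates for holding a lasting state, although transcript levels do not measure the marks themselves.

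The libraries held 6587199 to 22542832 counts in genes, and the lowest count of any of the 50 genes in any library was 27, for Suv39h2. The γδ T cell markers were present in every library, with Trdc, the constant region of the δ chain, at 1141 to 3873 CPM (read counts scaled to library size with TMM factors). Long transcripts were less well represented in some libraries than in others: Spearman's rho across genes between a gene's deviation from its mean and its length ran from 0.259 to 0.413 in the naïve libraries and was 0.273, -0.536, -0.422, -0.239 and -0.136 in pre-exposed mice 1 to 5. An index pair is named in the label descriptions of 7 libraries and not in those of mice 2 to 4 of the pre-exposed group. Mitochondrial mRNAs took 0.789% to 1.79% of the counts in these 3 against 3.99% to 9.40% in the others. The 10 leading genes of pre-exposed mouse 5 held 24.7% of its counts, and those of the other libraries 5.61% to 10.2%. Results are therefore also given for pre-exposed mice 2 to 4 and for mice 1 and 5, each against all 5 naïve mice, which the 2 comparisons share. Comparisons between these sets were chosen after the data were seen, so their adjusted p are descriptions. The sets differ in the traits just given, and the part of these traits in the results was not tested.

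Markers of other cells that the sort could hold also moved with the groups. In summed CPM, 9 monocyte and macrophage markers stood at 37.0 to 164 in the naïve group and at 996, 1479, 628, 329 and 46.7 in pre-exposed mice 1 to 5 (4 of 6 tested were called higher). The 10 dendritic cell markers stood at 142 to 197 against 845, 837, 439, 415 and 119 (6 of 10 called higher). Erythroid markers (6) stood at 80.1 to 462 against 333 to 2040 (4 called higher), and αβ T cell markers (6) at 1642 to 1992 against 1576 to 3289 (1 called higher). Within the αβ sum, Trac stood at 127 to 228 in naïve mice and at 317, 507, 406, 389 and 270 in pre-exposed mice 1 to 5. Cd4 stood at 8.51 to 38.7 against 108, 82.8, 79.2, 113 and 6.90. Trbc1 and Trbc2, the bulk of the sum, were below their naïve ranges in mouse 1 (460 and 627). NK cell markers (5) stood at 432 to 1074 against 604 to 1787 (2 called higher) and the γδ T cell markers (8 of 11 counted) at 6716 to 11434 against 4580 to 15190 (1 called higher). That last sum joins genes that moved apart. Trgc1, a γ chain gene, stood at 820 to 1098 in naïve mice and at 337, 521, 744, 540 and 1089 in pre-exposed mice 1 to 5. The γ chain genes Trgc2 and Trgc4 fell below the naïve range only in mouse 1. Trgc2 stood at 536 to 1344 against 388, 869, 1153, 846 and 1286, and Trgc4 at 667 to 1654 against 532, 703, 1044, 672 and 2198. Cd3d, shared by all T cells, stood at 490 to 698 against 501, 1645, 1284, 1202 and 1408. Trdc left its naïve range (1826 to 3873) only in mouse 1, at 1141. B cell markers (8, of which Ebf1 and Pax5 were at 0 in every library of both groups) stood at 44.2 to 98.7 against 43.2 to 159 (3 of 4 tested called higher). Neutrophil markers (6, with Ly6g at 0 in every naïve library) stood at 0 to 22.1 against 0 to 231 (1 of 3 called higher). The 14 cell cycle genes stood at 384 to 717 against 1555, 836, 833, 673 and 470, with 1 called higher. In bulk samples, fewer cells of a type and less RNA per cell cannot be told apart, and the part of these cells in the results was not tested.

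Of the 50 genes, 1 was called higher and 1 lower by edgeR in EM γδ T cells of pre-exposed mice, against 5.12% and 1.18% of all genes tested. Both belong to PRC2: Ezh2 was the higher one and Ezh1 the lower one. Most of the other genes stood below the naïve mice by amounts that did not pass the test, and 42 of the 50 log2 fold changes were negative, with a median of -0.27 against 0.02 over all genes tested. At an unadjusted p under 0.05 there were 1 higher (Ezh2) and 5 lower (Ezh1, Kdm3a, Kdm6a, Kmt2c and Setd2). Shares of all genes at that unadjusted cut are not given here or below, so such counts show nothing particular to these genes. Voom with TREAT at 1.5-fold, the kind of test named in the study's methods but run here on the genes and filter of the present fits, called none of them in either direction (at an unadjusted p under 0.05, 0 higher and 1 lower), against 0.0158% of all genes higher and 0% lower. These counts rested on single libraries. Without pre-exposed mouse 5 edgeR called 1 higher (Ezh2) and 8 lower (Arid2, Ezh1, Kat2b, Kat6a, Kat6b, Kdm3a, Kmt2c and Nsd1), against 9.17% and 5.61% of all genes. Without mouse 1 it called 0 higher and 4 lower (Ezh1, Kdm3a, Kdm6a and Setd2), against 9.51% and 3.89%, and without mouse 4 it called 1 higher (Ezh2) and 0 lower, against 3.78% and 0.514%. With any 1 naïve mouse, or pre-exposed mouse 2 or 3, left out it called 0 in both directions, against 0.387% to 2.66% of all genes higher and 0.0316% to 0.348% lower. In total the 50 genes took 0.380% to 0.423% of the counts in the naïve group and 0.378%, 0.223%, 0.291%, 0.320% and 0.268% in pre-exposed mice 1 to 5.

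These genes are long, and long genes as a whole had negative values. Their median length was 6340 bases against 2665 over the genes tested, and 32 of them were 5000 bases or longer, as were 1974 (15.6%) of the tested genes. Genes of 5000 bases or more had a median log2 fold change of -0.35, with 1.42% called higher and 1.98% lower. Once each library's trend with gene length was removed, the median of the 50 was 0.00, with 26 above 0 and 24 below. In that fit edgeR called none of them (at an unadjusted p under 0.05, 4 higher and 5 lower), against 1.39% of all genes higher and 0.34% lower. Without pre-exposed mouse 5 it called 4 (Ezh2 higher, and Setd2, Kat6a and Arid2 lower), against 4.5% of all genes higher and 4.75% lower. Without mouse 1 it called 1 (Setd2, lower), against 1.89% and 0.703%, and without mouse 4 it called 1 (Ezh2, higher), against 1.49% and 0.245%. With any other 1 mouse left out it called 0, against 0.15% to 0.601% higher and 0.0474% to 0.174% lower.

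**Figure D1:**
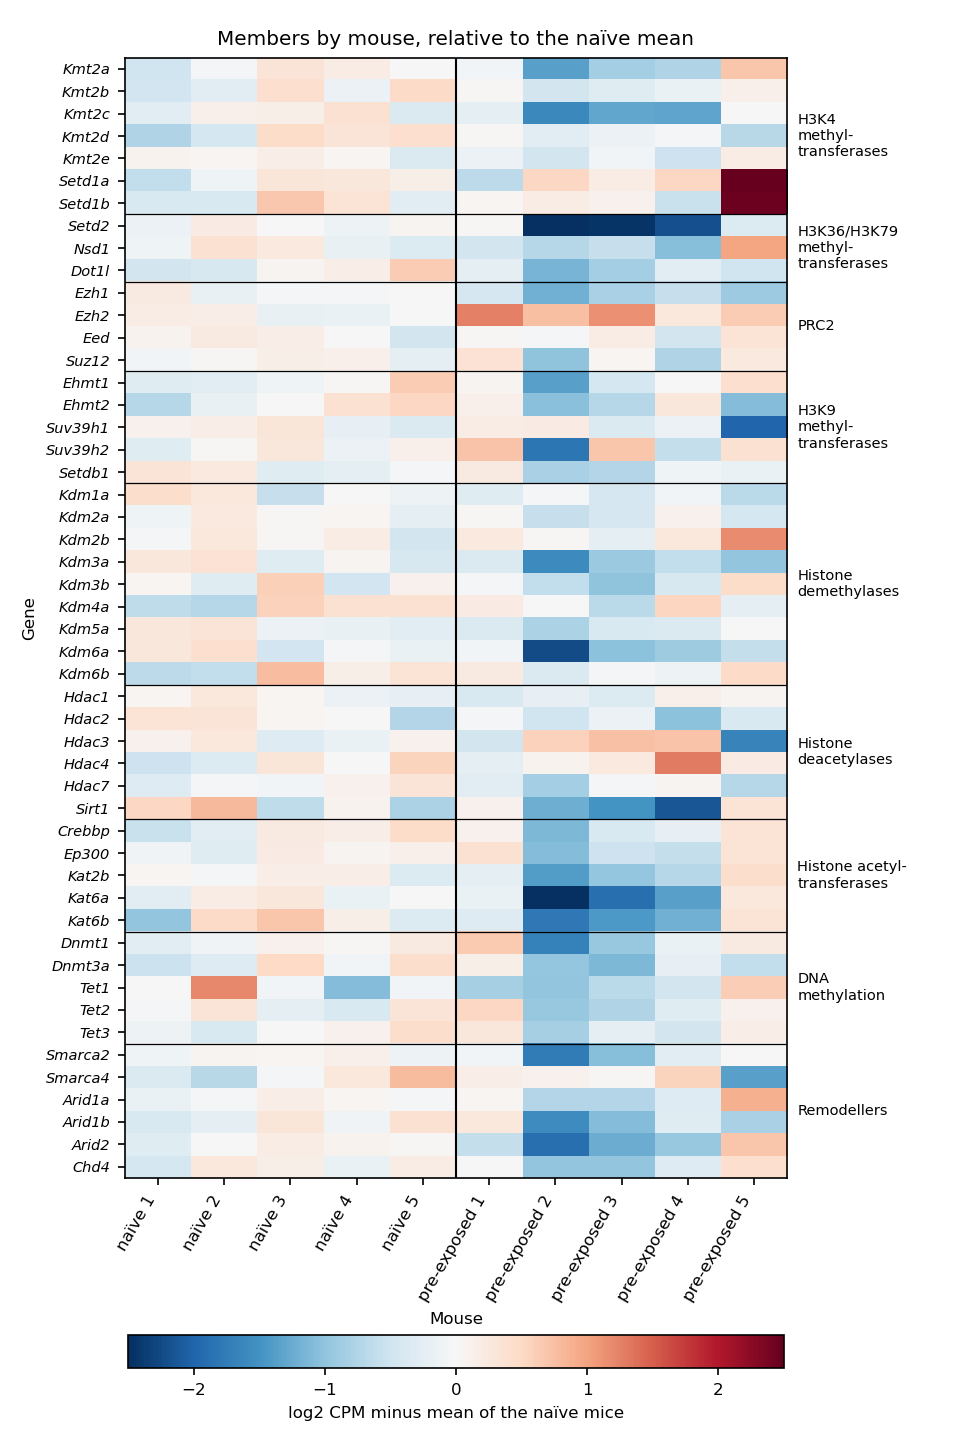
Log2 CPM of each of the 50 genes (rows, grouped by role) in each mouse (columns), as the difference from the mean of the 5 naïve mice, in a colour scale that ends at 2.5 in either direction. Ezh2 is above the naïve mean in all 5 pre-exposed mice, and blue columns run through most groups in pre-exposed mice 2 to 4, where 33, 27 and 22 of the 50 genes lay below every naïve mouse.

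PRC2 places methyl groups on lysine 27 of histone H3, and Ezh1 and Ezh2 are its alternative catalytic subunits. Ezh2 is the form of dividing and activated cells, Ezh1 is more abundant in resting cells, and Eed and Suz12 are core subunits that work with either. Ezh2 (GRCm38 chromosome 6 from 47530274 to 47595270) stood at 38.6, 38.3, 30.1, 30.5 and 33.7 CPM in naïve mice 1 to 5 and at 81.8, 57.6, 75.4, 40.7 and 52.9 in pre-exposed mice 1 to 5. Every pre-exposed mouse was above every naïve mouse, with mouse 4 nearest to them and mice 1 and 3 highest. The log2 fold change was 0.85 (standard error, SE, 0.24, adjusted p = 0.0494) in edgeR, and an exact permutation test gave p = 0.00794, the smallest that 5 against 5 mice allow. Ezh1 (chromosome 11 from 101191115 to 101226463) stood at 125, 94.4, 105, 105 and 106 CPM in naïve mice and at 79.3, 46.5, 60.4, 71.9 and 56.5 in pre-exposed mice. Here every pre-exposed mouse was below every naïve mouse, with mouse 2 lowest and mouse 1 highest. On the log2 scale it fell by 0.77 (SE 0.21, adjusted p = 0.0469 in edgeR, exact permutation p = 0.00794). Over all genes tested, 2.77% lay wholly above and 2.17% wholly below the naïve mice in this way.

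The group means of the other PRC2 members of this list, Eed and Suz12, were close. Rbbp4, also a PRC2 subunit, is described below with the other chromatin genes. Eed, which binds the methyl mark, stood at 218 ± 37.3 CPM in naïve and 220.3 ± 42.8 in pre-exposed animals (SD, n = 5 each), with a log2 fold change of 0.02 (SE 0.22, adjusted p = 0.978). Suz12, a scaffold of the complex, stood at 103 ± 11.1 and 94.0 ± 36.4 CPM, with a log2 fold change of -0.13 (SE 0.27, adjusted p = 0.803), and its pre-exposed values spread from 50.8 in mouse 2 to 132 in mouse 1. For Suz12, 2 pre-exposed mice were above the naïve range (86.1 to 114 CPM) and 2 below it. The ratio of Ezh2 to Ezh1, formed after their values were seen and given per length, ran from 0.450 to 0.639 in the naïve group and was 1.62, 1.95, 1.96, 0.891 and 1.47 in pre-exposed mice 1 to 5. Ezh2 thus exceeded Ezh1 per length in 4 of the 5 pre-exposed mice and in none of the naïve mice. Division by length does not remove the length trend of the libraries, and Ezh1 is the longer gene (4194 bases against 2667). The part of that trend in the ratio was not tested.

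**Figure D2:**
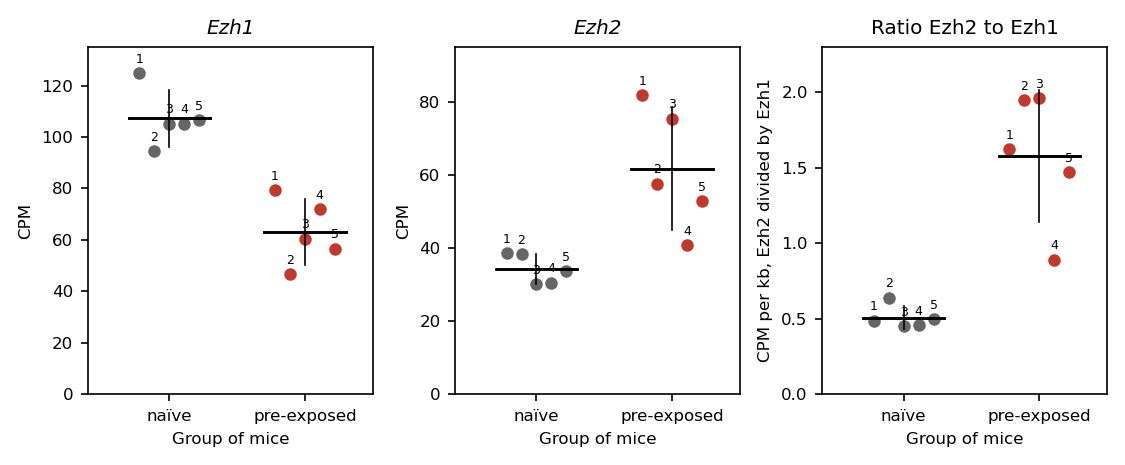
Ezh1 and Ezh2 in CPM and their ratio per kb of gene length in the naïve (5, grey) and the pre-exposed group (5, red), numbered by mouse. Horizontal bars mark group means, and vertical lines span ± SD. The groups do not overlap in any panel, and pre-exposed mouse 4, at 40.7 CPM of Ezh2 and a ratio of 0.891, is nearest to the naïve mice.

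Both directions held in each set of pre-exposed mice, without reaching the threshold in all. In mice 2 to 4 Ezh2 had 0.71 (SE 0.24, adjusted p = 0.0337) and Ezh1 -0.91 (SE 0.20, adjusted p = 0.00403) on the log2 scale. In mice 1 and 5 they had 1.03 (adjusted p = 0.121) and -0.60 (adjusted p = 0.308). Mice 2 to 4 set against mice 1 and 5 differed by -0.23 (adjusted p = 0.720) for Ezh2 and -0.19 (adjusted p = 0.727) for Ezh1, and neither difference passed. With the length trend removed Ezh2 had a log2 fold change of 0.91 (SE 0.23, adjusted p = 0.0593) and Ezh1 one of -0.51 (SE 0.17, adjusted p = 0.153), and neither passed. In those values Ezh2 of pre-exposed mouse 4 lay within the naïve range (exact permutation p = 0.0238), while Ezh1 still separated the groups (exact permutation p = 0.00794). The calls of both genes rested on single libraries: leaving out any naïve mouse, or pre-exposed mouse 2 or 3, took both past 0.05 (adjusted p of 0.0904 to 0.129 for Ezh2 and 0.0836 to 0.131 for Ezh1), as did leaving out pre-exposed mouse 1 for Ezh2 (0.0588) and mouse 4 for Ezh1 (0.0613). Cell cycle genes moved with Ezh2 in part, with their highest sum (1555 CPM) in pre-exposed mouse 1, where Ezh2 was also highest. In mouse 5 their sum (470) lay in the naïve range while Ezh2 (52.9) did not, and their part in the result was not tested.

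The RefSeq promoters of both genes (GRCm38.p6, 250 bases before to 50 after the start, 5′ to 3′ on the gene's strand) are shown because the 2 catalytic subunits went in opposite directions. Capitals mark a match to an E2F-type motif, searched on both strands as TTTCCCGC, TTTCGCGC, TTTGCCGC or TTTGGCGC. Ezh2 holds 1 match, at bases 4 to 11 after the start, with 3 CCAAT boxes (CCAAT) and 31 CpG dinucleotides. Ezh1 holds no match and no CCAAT box, with 23 CpG dinucleotides.
Ezh2 (chr6:47594981-47595280, minus strand): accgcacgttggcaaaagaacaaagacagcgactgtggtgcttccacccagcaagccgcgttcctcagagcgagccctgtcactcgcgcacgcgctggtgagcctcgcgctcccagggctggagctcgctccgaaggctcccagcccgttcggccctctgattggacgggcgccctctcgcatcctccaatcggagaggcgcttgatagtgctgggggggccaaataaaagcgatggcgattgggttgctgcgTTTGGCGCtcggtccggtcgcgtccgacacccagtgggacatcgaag
Ezh1 (chr11:101226414-101226713, minus strand): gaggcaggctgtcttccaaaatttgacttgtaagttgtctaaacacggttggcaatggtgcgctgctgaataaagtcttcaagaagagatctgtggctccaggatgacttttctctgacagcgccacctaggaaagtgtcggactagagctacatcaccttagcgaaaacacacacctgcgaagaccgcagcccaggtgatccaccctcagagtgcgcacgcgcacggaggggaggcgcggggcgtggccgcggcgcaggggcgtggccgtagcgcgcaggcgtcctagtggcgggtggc

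Promoters were found for 38 of the 50 genes, 56 promoters in all. An E2F-type match was in 5 of them (8.93%), those of Arid1a, Dnmt1, Ezh2, Suv39h1 and Suz12, against 4.03% of the promoters of tested genes and 2.26% of all 32851 promoters. CpG-rich promoters, with at least 50% GC and an observed to expected CpG ratio of at least 0.6, made up 83.9% (47) of them, 64.5% of those of tested genes and 33.5% of all. A GC box (GGGCGG) was in 73.2%, 61.0% and 35.7%, and a CCAAT box in 30.4%, 38.0% and 37.4%, of these in turn. Of the 5 genes with an E2F-type match, only Ezh2 passed the test with all mice, and a match is a description of the letters and not a site.

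None of the 7 genes listed as H3K4 methyltransferases passed the test, and 5 of the 7 had negative log2 fold changes (median -0.19). Kmt2c, which methylates lysine 4 at enhancers, had the smallest p of the group and stood at 147, 194, 197, 233 and 138 CPM in naïve mice and at 154, 58.2, 72.1, 71.3 and 180.0 in pre-exposed mice. Mice 2, 3 and 4 lay far below all naïve mice, while mice 1 and 5 lay among them. The log2 fold change was -0.77 (SE 0.32, adjusted p = 0.151) with all mice, -1.49 (SE 0.22, adjusted p = 0.000341) in mice 2 to 4 and -0.07 (adjusted p = 0.914) in mice 1 and 5. The difference between these sets of pre-exposed mice passed (-1.31, adjusted p = 0.0269). Kmt2c is counted over 16820 bases, and with the length trend removed mice 2 to 4 had -0.58 (adjusted p = 0.0471) and the difference between the sets was -0.21 (adjusted p = 0.687). Kmt2a, the founding MLL gene, was likewise low in mice 2 to 4, at 58.6, 81.6, 104, 94.0 and 84.0 CPM in naïve and 79.04, 32.4, 45.8, 49.1 and 134 in pre-exposed mice, with -1.05 (adjusted p = 0.00362) in mice 2 to 4 and -0.14 (adjusted p = 0.649) with the trend removed.

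Setd1a and Setd1b, the catalytic subunits of the general H3K4 methyltransferase complexes, departed from this. Setd1a stood at 4.18, 6.05, 8.07, 8.03 and 7.22 CPM in naïve and 4.09, 9.44, 7.40, 9.44 and 39.6 in pre-exposed mice, and Setd1b at 7.71, 7.70, 16.1, 12.8 and 8.38 and 10.5, 11.5, 10.8, 6.80 and 55.4. For both, mouse 5 stood alone above all others and the remaining pre-exposed mice were near the naïve range. Their log2 fold changes of 1.00 (adjusted p = 0.254) and 0.79 (adjusted p = 0.367) did not pass, but with the trend removed Setd1a was called in mice 2 to 4 (0.99, adjusted p = 0.0492). Of the exonic bases of Setd1a in the GENCODE annotation, 52.3% overlap other genes. Its reads are uncertain, since no source used here gives the strand setting of the counting. Kmt2b, Kmt2d and Kmt2e had -0.19, -0.28 and -0.18 on the log2 scale, with adjusted p of 0.729, 0.553 and 0.635.

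Methylation of lysine 36 marks the bodies of transcribed genes, and Setd2 is the enzyme that adds the last of its methyl groups, a mark known for keeping transcription from starting within genes. Setd2 (chromosome 9 from 110532500 to 110618633) stood at 108, 137, 121, 109 and 124 CPM in naïve mice and at 123, 17.7, 21.6, 26.0 and 93.9 in pre-exposed mice. The pre-exposed group split: mice 2, 3 and 4 were all far under the lowest naïve mouse, mouse 1 was within the naïve range, and mouse 5 was just below it. With all mice the log2 fold change was -1.10 (SE 0.46, adjusted p = 0.158), and an exact permutation test gave p = 0.0317. In mice 2 to 4 it was -2.53 (SE 0.22, adjusted p = 9.43e-06), with 0.506% of the genes tested at a lower value, against -0.09 (adjusted p = 0.874) in mice 1 and 5. Removal of the length trend left Setd2 at -1.83 (SE 0.20, adjusted p = 8.29e-05) in mice 2 to 4, with 1.85% of the genes tested at a lower value. The difference between the sets of pre-exposed mice passed without and with the trend removed (-2.32, adjusted p = 0.00223 and -1.62, adjusted p = 0.00790). This comparison was chosen after the data were seen, and the sets also differ in the library traits given above. The part of those traits in the difference was not tested. With sample quality weights, voom and TREAT called Setd2 and Kat6a lower and no other of the 50 genes, against 0.956% of all genes lower and 1.31% higher.

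Nsd1, which adds the first methyl groups to lysine 36, lay under every naïve mouse in 4 of 5 pre-exposed mice and above them in mouse 5, at 98.5, 82.3, 90.6, 64.6 and 266 CPM against 106 to 176 in naïve mice, with a log2 fold change of -0.20 (adjusted p = 0.764). Dot1l, the H3K79 methyltransferase, stood at 20.6 ± 6.72 and 13.4 ± 3.51 CPM, with -0.62 (SE 0.30, adjusted p = 0.230). Neither was called with all mice, and all 3 genes of the group had negative log2 fold changes (median -0.62).

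**Figure D3:**
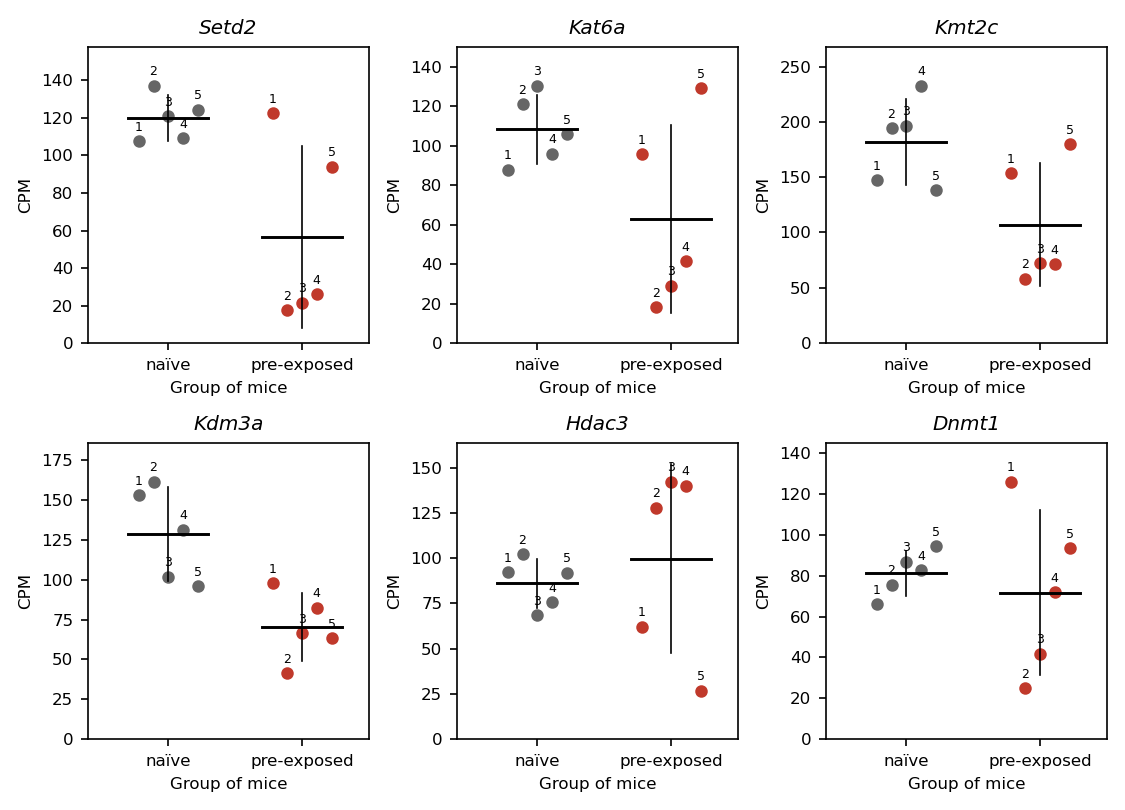
CPM of 6 of the genes in the naïve (5, grey) and the pre-exposed group (5, red), numbered by mouse. Horizontal bars mark group means, and vertical lines span ± SD. Setd2, Kat6a and Kmt2c are low in pre-exposed mice 2, 3 and 4 and near the naïve mice in 1 and 5, Hdac3 is high in 2, 3 and 4 and lowest of all in 5, and Kdm3a lies below the naïve range in 4 of 5 pre-exposed mice.

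Methylation of lysine 9 marks silent chromatin, and none of its 5 enzymes passed the test (median log2 fold change -0.25, 1 above 0). Ehmt2, also known as G9a, which adds the first methyl groups in euchromatin, had the smallest p, at 30.6, 44.2, 50.2, 65.8 and 71.8 CPM in naïve and 55.0, 24.2, 30.6, 60.8 and 23.6 in pre-exposed mice. Pre-exposed mice 2 and 5 were below the naïve range, mouse 3 at its lower end and mice 1 and 4 within it. The log2 fold change of Ehmt2 was -0.43 (SE 0.33, adjusted p = 0.445), and -0.22 (adjusted p = 0.724) with the length trend removed. The partner of G9a, Ehmt1, had -0.20 (adjusted p = 0.746), Setdb1, which silences retroelements, -0.30 (adjusted p = 0.519), and the heterochromatin enzymes Suv39h1 and Suv39h2 -0.25 (adjusted p = 0.680) and 0.08 (adjusted p = 0.935).

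Among the 9 histone demethylases 8 log2 fold changes were negative (median -0.30), and none was called with all mice. Kdm3a, which removes methyl groups from lysine 9, stood at 153, 162, 102, 131 and 96.1 CPM in naïve mice and at 98.0, 41.5, 66.5, 82.5 and 63.2 in pre-exposed mice. Mice 2 to 5 were below all naïve mice, and mouse 1 was level with the 2 lowest of them. The log2 fold change was -0.87 (SE 0.26, adjusted p = 0.0579) in edgeR, with an exact permutation p of 0.0159, and DESeq2 called it (-0.87, adjusted p = 0.0210). Its change was called in mice 2 to 4 (-1.09, adjusted p = 0.00497) and not in mice 1 and 5 (-0.62, adjusted p = 0.378), and with the length trend removed it was -0.59 (SE 0.21, adjusted p = 0.174). Kdm6a, the X-linked demethylase of lysine 27 that opposes PRC2, stood at 209, 231, 124, 166 and 153 CPM in naïve and 163, 36.2, 84.6, 92.6 and 114 in pre-exposed mice, 4 of which were below all naïve mice. It had -0.85 (SE 0.33, adjusted p = 0.126) with all mice, -1.39 (adjusted p = 0.00307) in mice 2 to 4 and -0.89 (adjusted p = 0.0315) there with the trend removed. Kdm6b, the inducible demethylase of the same mark, was low in both groups (14.4 ± 6.12 and 14.02 ± 3.25 CPM) and had -0.05 (adjusted p = 0.947).

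Kdm2b, which recruits Polycomb complexes to unmethylated CpG islands, was the demethylase with a positive value, 0.35 (adjusted p = 0.468), and in pre-exposed mouse 5 it reached 72.5 CPM against 23.4 to 38.4 in naïve mice. Kdm5a, a demethylase of lysine 4, lay under the naïve range in 4 of 5 pre-exposed mice (162, 120.3, 159.7, 162 and 205 CPM against a naïve range of 170.4 to 260.4), with -0.38 (adjusted p = 0.306), and its value with the length trend removed was 0.00. The log2 fold changes of Kdm1a, Kdm2a, Kdm3b and Kdm4a were -0.32, -0.24, -0.30 and -0.07, with adjusted p of 0.439 to 0.919, of which Kdm3b alone was called in mice 2 to 4 (-0.76, adjusted p = 0.0414). For Kdm3b 24.6% of the annotated exonic bases overlap another gene, so its reads are uncertain.

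Deacetylases remove acetyl groups from histones, and none of the 6 passed with all mice (median log2 fold change -0.24). Hdac2, a class I enzyme of several corepressor complexes, had the smallest p, at 208, 206, 171, 167 and 98.8 CPM in naïve and 162, 117, 149.5, 81.0 and 126 in pre-exposed mice. Pre-exposed mouse 4 alone lay below the naïve range, whose lower end is naïve mouse 5. The log2 fold change was -0.42 (SE 0.26, adjusted p = 0.327), and Hdac2 is short, at 2004 bases. With the length trend removed its values were -0.52 (adjusted p = 0.364) with all mice and -0.84 (adjusted p = 0.0453) in mice 2 to 4, where it was called. Hdac3, the catalytic subunit of the NCoR and SMRT complexes, split the pre-exposed mice the other way, at 92.2, 102, 68.5, 75.5 and 91.9 CPM in the naïve group and 62.1, 128, 142, 140.03 and 26.7 in pre-exposed mice. Mice 2, 3 and 4 were above all naïve mice, and mice 1 and 5 below them. With all mice it had 0.22 (adjusted p = 0.752), with mice 2 to 4 alone 0.61 (adjusted p = 0.0266), with mice 1 and 5 alone -0.89 (adjusted p = 0.248), and between these sets 1.604 (adjusted p = 0.0283), or 1.29 (adjusted p = 0.0471) with the trend removed.

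Sirt1, an NAD-dependent deacetylase, stood at 65.0, 79.7, 29.1, 48.2 and 26.2 CPM in naïve and 49.0, 19.3, 15.9, 10.2 and 57.2 in pre-exposed mice. Mice 2 to 4 were below every naïve mouse, although the naïve mice themselves spread widely. Sirt1 had a log2 fold change of -0.74 (SE 0.45, adjusted p = 0.336) with all mice, -1.77 (adjusted p = 0.00310) in mice 2 to 4 and -1.42 (adjusted p = 0.0232) there with the trend removed. Hdac1, Hdac4 and Hdac7 had -0.14, 0.38 and -0.33, with adjusted p of 0.717, 0.493 and 0.424, and for Hdac4 22.4% of the annotated exonic bases overlap another gene.

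All 5 histone acetyltransferases had negative log2 fold changes (median -0.46) and none was called with all mice. Kat6b had the smallest p and stood at 7.27, 20.1, 23.6, 16.1 and 11.4 CPM in naïve mice and at 11.5, 4.09, 5.25, 6.18 and 18.3 in pre-exposed mice. Mice 2, 3 and 4 were below all naïve mice, and mice 1 and 5 within their range. Its log2 fold change was -0.87 (SE 0.44, adjusted p = 0.241) with all mice, -1.70 (adjusted p = 0.00513) in mice 2 to 4 and -1.02 (adjusted p = 0.0797) there with the trend removed. The related MYST-family enzyme Kat6a, with the same division among the mice, stood at 87.8, 121, 130.4, 95.9 and 106 CPM in naïve and 95.6, 18.3, 29.0, 41.5 and 129 in pre-exposed mice. Its log2 fold changes were -0.80 (SE 0.42, adjusted p = 0.262) with all mice, -1.95 (adjusted p = 0.000159) in mice 2 to 4 and 0.11 (adjusted p = 0.862) in mice 1 and 5. Kat6a stayed called in mice 2 to 4 with the length trend removed (-1.23, SE 0.22, adjusted p = 0.00242), and between the sets of pre-exposed mice (-1.93, adjusted p = 0.0122, and -1.19 with adjusted p = 0.0496 with the trend removed). The general coactivators Crebbp and Ep300 had -0.22 (adjusted p = 0.678) and -0.21 (adjusted p = 0.703), and Kat2b, also known as PCAF, -0.46 (adjusted p = 0.382). Ep300 and Kat2b were called lower in mice 2 to 4 (-0.78, adjusted p = 0.0138 and -1.09, adjusted p = 0.00322), where each mouse was below every naïve mouse, and not with the trend removed (-0.06, adjusted p = 0.865 and -0.62, adjusted p = 0.0530).

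Methylation of cytosine in DNA is copied by Dnmt1 at replication, set anew by Dnmt3a and oxidised on the way to removal by the Tet enzymes, and none of the 5 genes passed the test (median log2 fold change -0.21, all negative). Dnmt1 stood at 65.9, 75.5, 86.8, 82.6 and 94.5 CPM in naïve mice and at 126, 24.8, 41.7, 72.0 and 93.6 in pre-exposed mice. Pre-exposed mouse 1 was above and mice 2 and 3 below all naïve mice, while mice 4 and 5 were among them. Its log2 fold change was -0.18 (SE 0.35, adjusted p = 0.787), and its sign turned with the length trend removed (0.06). Dnmt3a stood at 32.9, 38.2, 67.3, 45.6 and 65.2 CPM in naïve and 53.3, 24.3, 22.0, 41.6 and 31.1 in pre-exposed mice, with mice 2, 3 and 5 below all naïve mice and a log2 fold change of -0.53 (SE 0.30, adjusted p = 0.295). With the trend removed it was -0.16. Both were called lower in mice 2 to 4 (-0.89, adjusted p = 0.0241 and -0.82, adjusted p = 0.0412) and neither with the trend removed there (-0.30 and -0.05).

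Tet2, mutated in many blood cancers, stood at 29.6, 38.2, 26.0, 23.4 and 37.9 CPM in naïve and 43.7, 15.7, 18.1, 24.8 and 32.7 in pre-exposed mice, with a log2 fold change of -0.21 (SE 0.30, adjusted p = 0.715). Tet3 stood at 31.0, 26.1, 33.9, 36.6 and 46.1 and 41.5, 19.2, 29.2, 24.9 and 38.2 CPM, with -0.19 (SE 0.27, adjusted p = 0.711). For both, mouse 2 was lowest and below the naïve range, with mouse 3 also below it for Tet2 and mouse 4 for Tet3, and mouse 1 lay in its upper part or above it. In mice 2 to 4 Tet2 was called lower (-0.73, adjusted p = 0.0425), and not with the trend removed (-0.01). With the length trend removed the values were 0.08 and 0.16. Tet1 was scarce, at 11.3, 25.7, 10.6, 5.20 and 10.7 CPM in naïve and 6.18, 5.55, 6.92, 8.05 and 17.1 in pre-exposed mice, and no pre-exposed mouse left the naïve range, the upper end of which is naïve mouse 2. The log2 fold change of Tet1 was -0.62 (SE 0.43, adjusted p = 0.398).

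All 6 remodellers had negative log2 fold changes (median -0.40), and none was called with all mice. Arid1b, a DNA-binding subunit of SWI/SNF complexes, had the smallest p and stood at 38.8, 43.1, 62.2, 47.7 and 66.0 CPM in naïve and 60.3, 16.9, 23.9, 40.8 and 28.9 in pre-exposed mice. Mice 2, 3 and 5 were below all naïve mice, mouse 4 within their range and mouse 1 at its upper part. Arid1b had a log2 fold change of -0.59 (SE 0.32, adjusted p = 0.272), and -0.25 (adjusted p = 0.688) with the length trend removed. Arid2, the subunit of the PBAF form, stood at 37.2, 15.1, 23.6, 28.9 and 90.8 CPM in pre-exposed mice against 45.4 to 63.5 in naïve mice, with 4 below and mouse 5 above them. It was called in mice 2 to 4 without (-1.39, adjusted p = 0.000842) and with (-0.67, adjusted p = 0.0369) the length trend removed. The ATPases Smarca2 and Smarca4 had -0.50 (adjusted p = 0.312) and -0.06 (adjusted p = 0.936), Arid1a -0.04 (adjusted p = 0.949) and the NuRD ATPase Chd4 -0.30 (adjusted p = 0.554).

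Set by set, the lower values of this group of genes lay in pre-exposed mice 2 to 4. In these 3 mice edgeR called 21 of the 50 lower and 2 higher (Ezh2 and Hdac3), a median log2 fold change of -0.61, against 14.9% of all genes lower and 14.9% higher. Among all genes of 5000 bases or more 39.9% were called lower and 2.63% higher. The 50 include 18 genes shorter than 5000 bases, some of them among the 21, so these shares are not matched in length. With the length trend removed, 7 were lower (Setd2, Sirt1, Kat6a, Kdm6a, Hdac2, Arid2 and Kmt2c) and 2 higher (Setd1a and Ezh2), with a median of -0.10, against 8.86% of all genes lower and 7.48% higher. In mice 1 and 5 none was called (at an unadjusted p under 0.05, 4 higher and 2 lower), the median was 0.07, and of all genes 0.182% were higher and 0% lower. Between the sets of pre-exposed mice, 4 were lower in mice 2 to 4 (Setd2, Kat6a, Kmt2a and Kmt2c) and 1 higher (Hdac3), against 2.73% and 0.332% of all genes. With the length trend removed these were 2 (Setd2 and Kat6a) and 1 (Hdac3), against 2.01% and 0.19%. In all, 16 of the 50 genes lay below every naïve mouse in each of mice 2, 3 and 4, against 11.7% of all genes tested and 30.9% of those of 5000 bases or more. Of these, 9 were not below the naïve range in either of mice 1 and 5, against 4.58% and 14.7%. The shares for genes of 5000 bases or more are likewise not matched in length to the 50.

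**Figure D4:**
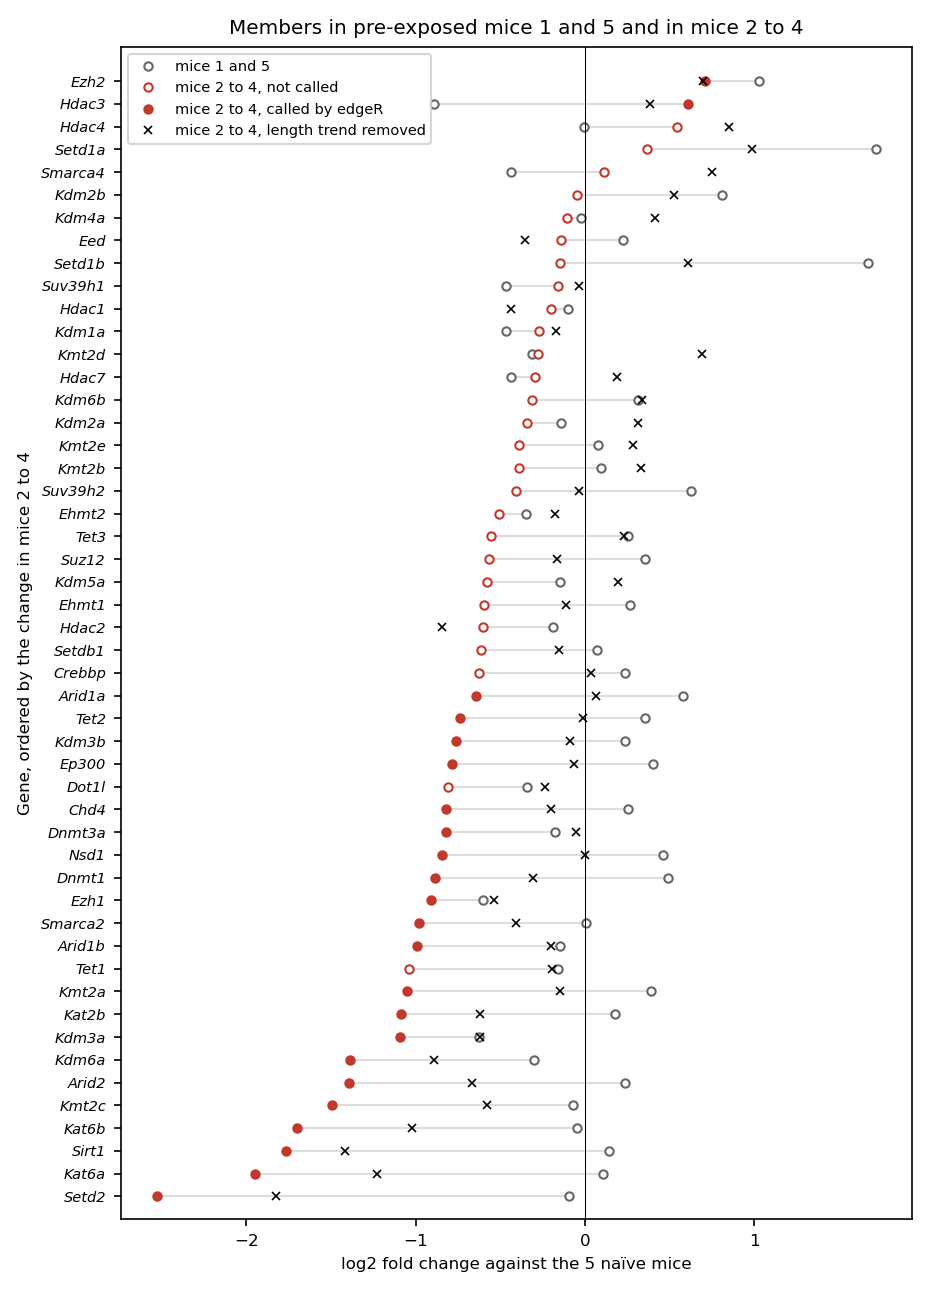
Log2 fold change of each of the 50 genes against the 5 naïve mice in pre-exposed mice 1 and 5 (grey circles) and in mice 2 to 4 (red circles, filled where edgeR called the gene), with crosses for mice 2 to 4 after removal of the length trend. Values in mice 2 to 4 run from -2.53 for Setd2 to 0.71 for Ezh2, most crosses are nearer to 0 than their circles, and Setd2, Sirt1, Kat6a and Kat6b stay below -1 with the trend removed.

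In pre-exposed mice 2 to 4 the median of these genes lay near that of all long genes, and in mouse 5 above it. The 50 include 18 genes shorter than 5000 bases, so these comparisons are not matched in length. The median of the 50 genes from the naïve mean was 0.02, -0.90, -0.54, -0.31 and 0.18 on the log2 scale in pre-exposed mice 1 to 5, beside -0.06, -0.92, -0.55, -0.39 and -0.07 for all genes of 5000 bases or more. It was -0.06, -0.12, -0.12, 0.05 and 0.25 with the length trend removed, beside a naïve range of -0.06 to 0.07. Of the 50 genes, 14%, 66%, 54%, 44% and 28% lay below every naïve mouse in pre-exposed mice 1 to 5, beside 20.1%, 64.3%, 53.3%, 44.2% and 32.6% of the genes of 5000 bases or more and 17.8%, 31.2%, 24.6%, 22.8% and 38.2% of all genes tested. Across the 50 genes, Spearman's rho between the log2 fold change and gene length was -0.24 with all mice and -0.42 in mice 2 to 4, and 0.09 there after removal of the trend, as descriptions over genes that share the same libraries.

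**Figure D5:**
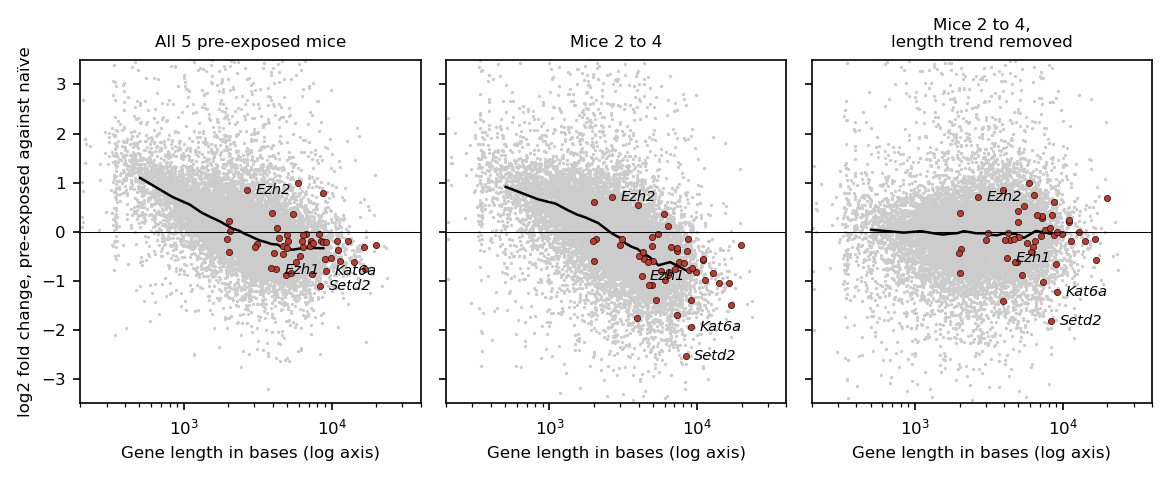
Log2 fold change against naïve mice by gene length on a log axis, for the genes tested of 200 bases or more (grey), with their running median over 20 equal bins (black line) and the 50 genes (red), in all 5 pre-exposed mice, in mice 2 to 4 and in mice 2 to 4 after removal of the length trend. Points beyond the axis are not drawn. The black line falls with length in the panels without removal, and in all 3 panels Setd2 and Kat6a lie below it and Ezh2 above it.

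Levels of different genes were compared per kb of length, without removal of the length trend of the libraries. In naïve mice Eed was highest at 106 ± 18.1 CPM per kb, followed by Hdac2 (84.9 ± 22.1) and Kmt2e (81.5 ± 10.6), which differed by less than their spread, and by Hdac3 (42.9 ± 6.83) and Hdac1 (34.2 ± 4.52). The lowest were Setd1b (1.21 ± 0.435), Suv39h2 (1.18 ± 0.191), Setd1a (1.13 ± 0.276) and Tet1 (0.902 ± 0.547), which also lay within each other's spread. In this order Ezh2 moved from place 18 in naïve mice (12.8 ± 1.54 CPM per kb) to place 6 in pre-exposed mice (23.1 ± 6.29), and Setd2 from place 15 (14.4 ± 1.44) to place 28 (6.75 ± 5.82). Ezh1 kept about its place, 8 and 9, at 25.6 ± 2.63 and 15.004 ± 3.08 CPM per kb.

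The other subunits, readers and enzymes of the same complexes were taken from 12 lists with 185 genes, of which 181 were tested. EdgeR called 1 of them lower and 0 higher, against 1.18% and 5.12% of all genes tested. Their median log2 fold change was -0.08, with 12 lower and 8 higher at an unadjusted p under 0.05. DESeq2 called 3 lower and 2 higher, and its shares of all genes are not given here. The lower one in edgeR was Uhrf2, a relative of the factor that brings Dnmt1 to replicated DNA, at 158 ± 28.5 CPM in naïve and 82.6 ± 28.7 in pre-exposed animals (SD, n = 5 each). Uhrf2 lay wholly below the naïve mice, as did 2.17% of all genes tested. Its log2 fold change was -0.94 (SE 0.26, adjusted p = 0.0454 in edgeR, exact permutation p = 0.00794), and -0.72 with the length trend removed (adjusted p = 0.177). Leaving out any of the 5 naïve mice, or pre-exposed mouse 2, 3 or 4, left no call among these genes. Leaving out mouse 1 gave 4 lower and 4 higher, against 3.89% and 9.51% of all genes. Leaving out mouse 5 gave 12 lower and 5 higher, against 5.61% and 9.17%. In mice 2 to 4 edgeR called 39 lower and 13 higher, where 14.9% of all genes were called in each direction. Removal of the length trend left 10 lower and 9 higher, where 8.86% and 7.48% of all genes were called.

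No list stood out by its calls, since Uhrf2 was the one gene called. By list, the median log2 fold changes were -0.20 for the COMPASS and Menin subunits (10 tested), -0.17 for the PRC2 accessory and PRC1 subunits (21), 0.01 for heterochromatin readers (10), -0.10 for other histone methyltransferases (18), -0.32 for other histone demethylases (12) and 0.01 for other deacetylases and corepressors (22). They were -0.10 for other acetyltransferases and their subunits (22), 0.24 for DNA methylation cofactors (10), -0.12 for SWI/SNF subunits (16), 0.19 for NuRD subunits (11), -0.05 for ISWI, CHD and INO80 remodellers (22) and -0.29 for bromodomain readers (10). Beside PRC2, its accessory subunit Phf19, which targets the complex to chromatin, had 1.07 (adjusted p = 0.188) and the histone chaperone Rbbp4, a PRC2 and NuRD subunit, 0.65 (adjusted p = 0.192), with Rbbp4 called in mice 2 to 4 (0.98, adjusted p = 0.00211). None of the following genes, those with the smallest p of their lists, passed the test with all mice. The methyltransferase gene Setdb2 had -1.09 (adjusted p = 0.0566) and the lysine 9 demethylase Phf8 -0.73 (adjusted p = 0.0942), and for Phf8 no pre-exposed mouse reached the lowest naïve one (exact permutation p = 0.00794). Gadd45g, a stress-induced gene linked to DNA demethylation, was above all naïve mice in all 5 pre-exposed mice (exact permutation p = 0.00794), with 0.87 (adjusted p = 0.0781), and Pole3, a histone-fold subunit of DNA polymerase ε and of a remodeller, had 1.09 (adjusted p = 0.0527). Over all genes tested, 2.17% lay wholly below and 2.77% wholly above the naïve mice. Pole3 and Gadd45g are short, at 602 and 1081 bases. With the length trend removed edgeR gave Pole3 0.21 (adjusted p = 0.712) and Gadd45g 0.35 (adjusted p = 0.502). In that fit Phf8 had -0.39 (adjusted p = 0.361) and Setdb2 -0.99 (adjusted p = 0.103). Other genes of these lists grew there, such as Rbbp4 (1.01, adjusted p = 0.149) and Sin3b (0.78, adjusted p = 0.0989). Brwd1 and Brd2, bromodomain readers of acetylated histones, had -0.87 (adjusted p = 0.0752) and -0.67 (adjusted p = 0.139), the arginine methyltransferase Prmt1 0.65 (adjusted p = 0.127), and the heterochromatin proteins Cbx1 and Smchd1 1.00 (adjusted p = 0.114) and -0.57 (adjusted p = 0.326). Dpy30 and Rbbp5 of COMPASS had 0.80 (adjusted p = 0.135) and -0.68 (adjusted p = 0.164), the SWI/SNF subunits Ss18 and Bcl7c -0.54 (adjusted p = 0.166) and 0.80 (adjusted p = 0.221), the NuRD subunit Cdk2ap1 0.63 (adjusted p = 0.147), and the remodeller subunit Baz2a -0.59 (adjusted p = 0.176). The demethylase Kdm5c had -0.62 (adjusted p = 0.211), the corepressor subunits Sin3b and Ing2 0.47 (adjusted p = 0.211) and 0.50 (adjusted p = 0.297), and the acetyltransferase subunits Ing5 and Taf5l -0.41 (adjusted p = 0.319) and -0.41 (adjusted p = 0.368).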

How the data were processed

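RNA of sorted splenic EM γδ T cells from 5 naïve and 5 pre-exposed mice was sequenced, and per the labels the authors used the mm10 build and counted reads per gene with featureCounts. The kit is a SMART ultra-low input kit in the study's methods and TruSeq in the labels. For featureCounts, neither version nor strand setting is given by the sources used here. The deposited values are raw counts per Entrez gene for 27179 genes, of which 25275 were matched to a symbol, and the 10 per-library files held the same values as the table of the series. The libraries totalled 6587199 to 22542832 counts, and the lowest count of any member in any library was 27.

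EdgeR 4.0.16 (R 4.3.3) was used with TMM scaling, filterByExpr, the quasi-likelihood test and Benjamini-Hochberg adjustment over all 12655 genes tested, with a call at an adjusted p under 0.05. Of 13534 genes that passed the filter, 767 without a symbol and 112 immunoglobulin genes were left out. Voom with TREAT at 1.5-fold (limma 3.58.1) and DESeq2 1.42.0 were run beside it. For removal of the length trend, each library's deviations from the gene means were fitted on log2 gene length by loess (span 0.3), and the fitted values entered edgeR as offsets. Levels are CPM, and log2 CPM with a prior count of 2 entered the exact permutation tests, which were two-sided. The fits were tested on simulated data.

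Described in full were the genes called, the gene with the smallest p of each role, and Dnmt1, Dnmt3a, Tet1, Tet2, Tet3, Ezh1 and Ezh2, with up to 2 genes of smallest p from each of the 12 lists of other chromatin genes. Genes such as Kat6a, Hdac3, Sirt1, Kdm6a, Arid2, Setd1a and Setd1b were described after their values were seen. The members and all lists were chosen with earlier results of these data known. The comparisons that join mice 2 to 4, or mice 1 and 5, with removal of the length trend, and those between these sets, were chosen after seeing the data. Mice are separate animals, and equal mouse numbers in the groups did not mark pairs. Promoter sequences, motif counts and gene spans come from RefSeq (promoters on GRCm38.p6), and exon overlaps from GENCODE on GRCm38. Protein sequences were not used here.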

Additional observations from a re-analysis of the deposited data

Results flagged for a closer look

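Of 100 groups of 5 mice looked at, for the 50 genes in both groups, 8 (8%) held a mouse far from the other 4 by Dixon's 95% limit. The nominal rate of 1 in 20 is for independent, normally spread values. These are unlogged CPM of genes that share the same libraries, so the 8% is a description and not a test. Of these, 5 had pre-exposed mouse 5 as the highest mouse: Setd1a at 39.6 CPM, Setd1b at 55.4 CPM, Nsd1 at 266 CPM, Kdm2b at 72.5 CPM and Tet1 at 17.1 CPM. In pre-exposed mouse 4 Hdac4 was highest, at 70.3 CPM. In naïve mouse 5 Kmt2e was lowest, at 458 CPM, and Ehmt1 highest, at 64.2 CPM. None of these genes was called with all mice.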

How the results depend on the processing

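With all mice edgeR called 1 of the 50 genes lower and 1 higher. The number lower was 0 with upper-quartile scaling, an older dispersion method, no filter on low counts, unnamed and immunoglobulin genes kept, the length trend removed or the style of the label description as a covariate, 2 with DESeq2 and 2 with voom quality weights and TREAT. The number higher was 0 with DESeq2 size factors, the older dispersion method, no filter, the length trend removed, the description style as a covariate, or voom quality weights and TREAT. Where the share of all genes under a setting is not given, a count in this section shows nothing particular to these genes. Among others this holds for DESeq2, the other scalings, the older dispersion method, the filter settings, the replicate block and the description style. Pre-exposed mice 1 and 5 gave 0 and 0, also with the length trend removed, and mice 2 to 4 gave 21 lower and 2 higher, or 7 and 2 with it removed. Leaving out 1 mouse gave 0 to 8 lower (8 without pre-exposed mouse 5), 0 to 1 higher, and 0 to 4 called with the length trend removed. TREAT called 0 under each omission and 2 with quality weights. The median log2 fold change of -0.27 was -0.37 to -0.18 with 1 mouse left out, 0.074 in mice 1 and 5 (0.048 with the trend removed) and -0.61 in mice 2 to 4.

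Mice with the same number did not deviate together (correlations of -0.261 to 0.053), so the numbers give no pairs. With the replicate block edgeR called 0 lower and 0 higher (at an unadjusted p under 0.05, 1 higher and 6 lower) and 0 of the other chromatin genes, and likewise 0 and 0, and 0, with the replicate block and the length trend removed.

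Of the other chromatin genes 1 was called with all mice, 0 with DESeq2 size factors, the older dispersion method, no filter, unnamed genes kept, the length trend removed, the description style as a covariate, or mice 1 and 5 with or without the trend, 2 with upper-quartile scaling, 5 with DESeq2, 52 in mice 2 to 4, 19 there with the trend removed, and 0 to 17 with 1 mouse left out (17 without pre-exposed mouse 5).

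No named gene that passed the test changed direction. Dnmt1 (-0.18 with all mice) was 0.062 with the length trend removed, 0.44 with the description style as a covariate, 0.49 in mice 1 and 5, 0.49 there with the trend removed, and -0.49 to 0.039 with 1 mouse left out (0.039 without pre-exposed mouse 2). Tet2 (-0.21) was 0.079, 0.31, 0.36 and 0.21 in the first 4 of these settings and 0.10 with the block and the trend removed. Tet3 (-0.19) was 0.16, 0.21, 0.26 and 0.066, 0.18 with the block and the trend removed, and 0.23 in mice 2 to 4 with the trend removed. The cause of these changes was not tested. Whether depth or the spread between mice limits these comparisons was not tested.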

Other observations

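In pre-exposed mouse 5, 38.2% of all genes tested lay below every naïve mouse, and in mice 1 to 4 of that group 17.8% to 31.2% did. Of the 50 genes, 15 lay above and 14 below every naïve mouse in it, against 6 and 7 in mouse 1 and 3 to 5 above and 22 to 33 below in mice 2 to 4. The shares in mouse 5, 30% above and 28% below, stand beside 31.3% and 38.2% of all genes tested. Those above included the H3K4 methyltransferase genes Setd1a, Setd1b and Kmt2a, the H3K36 methyltransferase gene Nsd1, the demethylase gene Kdm2b and the remodeller subunit gene Arid2, and those below included Ezh1, Hdac3, Ehmt2, Dnmt3a and Arid1b. With the length trend removed its median over the 50 genes was 0.25, and it was -0.12 to 0.05 in mice 1 to 4. The 10 leading genes of this library held 24.7% of its counts, and their part in these values was not tested.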
